A study of Mus musculus with 6 samples.

Results

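Galectins are lectins that bind β-galactoside sugars, and 5 of their genes together with the gene of a glycoprotein that binds galectin-3 were followed here in RAW264.7 cells, an established mouse macrophage-like line. The members are Lgals1, Lgals3, Lgals4, Lgals8, Lgals9 and Lgals3bp, taken by symbol from the deposited gene table, so they are 6 of its 56636 rows. They were selected on the TPM of Lgals9, which was higher in the treated libraries than in the vehicle libraries. The difference between 25-HC and vehicle was therefore part of the choice, and for the members it is given as a description, with no test.

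All 6 libraries came from RAW264.7 cells whose genotype is labelled WT, and by the labels they differ only in treatment: 3 libraries are from cells given vehicle and 3 from cells given 25-HC, each for 24 h. The labels used here name neither the dose nor the full name of 25-HC, and they do not say whether the libraries of a group came from separate cultures, so their spread may be technical. The series is about cholesterol homeostasis and a microRNA secreted by cancer cells, and this comparison asks which transcripts of a macrophage line differ after 25-HC. A single line stands for the macrophage here. Values are TPM, a transcript abundance scaled for transcript length and for the library total, so levels of different genes can be ordered but sequencing depth is unknown. In bulk RNA, fewer cells with a transcript and less transcript per cell cannot be told apart.

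Galectins are made in the cytosol and leave the cell by a route that does not use the classical secretory pathway. Outside the cell they cross-link glycans on receptors and matrix, and inside it they bind glycans that become exposed when an endosome or lysosome is torn. The family is usually divided into prototype galectins with a single carbohydrate-binding domain (galectin-1), a chimeric galectin with a long amino-terminal tail (galectin-3) and tandem-repeat galectins with a pair of linked domains (galectin-4, galectin-8 and galectin-9). Macrophages are known for high galectin-3, and Lgals9 and Lgals3bp are known to respond to interferon in many cell types.

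The libraries were not equally alike, and this bears on every value below. On the log2 scale the 25-HC libraries differed little from each other, while vehicle 1 and vehicle 2 stood apart: 9492 genes reached 1 TPM in vehicle 2 and 11238 in vehicle 1, against 11971 to 12005 in the other 4 libraries. The median difference over all 12092 genes tested (mean of at least 1 TPM) was 0.52 on the log2(TPM + 1) scale, and 0.13 without vehicle 2. After rescaling each library by the median ratio of its genes to their mean over libraries it was 0.01. Of 10 macrophage markers, 8 had a mean of at least 1 TPM. On the log2(TPM + 1) scale 7 had a positive difference (median of the 8, 0.82). Every treated library was above every vehicle library in 5 (62.5%), against 22.6% of all genes. The largest folds among the tested markers were those of Ptprc, the leukocyte phosphatase CD45 (3.58), the integrin gene Itgam (3.17) and Adgre1, which encodes F4/80 (2.87). Each of these genes was lowest in vehicle 2. Csf1r and Spi1 overlapped between the groups. Csf1r was at 103, 41.2 and 262 TPM in the vehicle libraries and 153 to 183 TPM after 25-HC. The mean of Spi1 was 202 TPM in the vehicle libraries and 200 TPM after 25-HC. Cd68, a lysosomal membrane protein of macrophages, was the only marker that separated downward (8.1% of all genes did), at 818 to 836 TPM in the vehicle libraries and 798 to 818 TPM after 25-HC. After median-ratio rescaling 3 markers separated upward and 1 downward, with a median of 0.20, and against vehicle 3 alone 5 and 3 did, with a median of 0.42. The macrophage genes summed to 1381 to 2047 TPM in the vehicle libraries and 2175 to 2193 TPM after 25-HC, and Mertk was listed at 0 in all libraries. The part of the macrophage markers in the members' values was not tested. None of the markers of intestinal epithelium (8 genes), fibroblasts, lymphocytes and neutrophils (6 genes each) reached a mean of 1 TPM, and no such list summed to more than 2.57 TPM in any library.

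Galectin-9 is a tandem-repeat galectin, known as a ligand of the inhibitory receptor TIM-3. Lgals9 was at 4.69, 2.81 and 5.56 TPM with vehicle (libraries 1, 2 and 3) and at 22.4, 25.6 and 23.1 TPM after 25-HC. Each treated library was above each vehicle library, and the lowest treated value was 4.03 times the highest vehicle value. The group means were 4.35 ± 1.41 TPM in the vehicle libraries and 23.7 ± 1.65 TPM after 25-HC (SD, n = 3 each), a 5.44-fold difference. Against vehicle 3, the vehicle library closest to the treated ones, the fold was 4.26. The difference was 2.24 on the log2(TPM + 1) scale, or 1.72 above the median of all genes, and 1.17% of the genes tested had a larger one. It stood at 1.68 after median-ratio rescaling and at 2.01 without vehicle 2, with no overlap between the groups in either case. These values are the ones that led to the choice of the family.

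The start of Lgals9 is shown because it holds the core letters of an interferon-stimulated response element, the DNA element bound by interferon-activated factors, and Lgals3bp is set beside it as the other member with a related match. The windows run from 250 bases before to 50 bases after the start of the gene in RefSeq (build GRCm38.p6), 5′ to 3′ on the strand of the gene. Capitals mark matches to GAAANNGAA or to a related form of that core, AANNGAAAC, on either strand. Both genes lie on the minus strand of chromosome 11, Lgals9 at chr11:78984875-78985174 and Lgals3bp at chr11:118401910-118402209.
Lgals9: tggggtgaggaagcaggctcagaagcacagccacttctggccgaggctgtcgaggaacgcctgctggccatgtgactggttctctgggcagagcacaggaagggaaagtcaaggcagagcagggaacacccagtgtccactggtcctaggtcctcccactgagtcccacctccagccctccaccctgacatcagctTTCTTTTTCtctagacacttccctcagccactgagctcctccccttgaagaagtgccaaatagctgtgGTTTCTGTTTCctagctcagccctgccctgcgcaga
Lgals3bp: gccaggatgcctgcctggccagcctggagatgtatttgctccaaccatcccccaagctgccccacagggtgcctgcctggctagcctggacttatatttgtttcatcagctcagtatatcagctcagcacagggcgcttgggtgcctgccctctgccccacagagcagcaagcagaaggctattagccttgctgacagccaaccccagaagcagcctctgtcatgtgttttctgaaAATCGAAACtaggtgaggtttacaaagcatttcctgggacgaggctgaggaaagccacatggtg
Lgals9 held GAAANNGAA at 2 places, both on the strand opposite to the gene. One spans bases -54 to -46 from the start and reads GAAAAAGAA on that strand, and the other spans bases 17 to 25 after the start and reads GAAACAGAA. The latter overlaps a match to AANNGAAAC at bases 15 to 23. Lgals3bp held only AANNGAAAC, as AATCGAAAC at bases -14 to -6 on its own strand. Of all 32851 RefSeq promoter windows of this length, 8.56% held GAAANNGAA and 5.77% held AANNGAAAC. The windows of Lgals3, Lgals4 and Lgals8 held neither, and none of the 5 windows held the gamma-activated site TTCNNNGAA (8.3% of all windows) or the sterol regulatory element TCACNCCAC (1.24%). These matches describe letters in a window and do not show that a factor binds there.

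Galectin-3 is the chimeric galectin abundant in macrophages, where it takes part in phagocytosis and in the response to damaged lysosomes. Lgals3 was at 313, 256 and 287 TPM with vehicle and at 523, 528 and 501 TPM after 25-HC. All treated libraries lay above all vehicle libraries, and the vehicle libraries were close to each other, with a coefficient of variation of 9.96%. The group means were 285 ± 28.4 TPM and 517 ± 14.4 TPM (SD, n = 3 each), a 1.81-fold difference, and the fold over each vehicle library was between 1.65 and 2.02. On the log2(TPM + 1) scale the difference was 0.86, which is 0.34 above the median of all genes, and 30.2% of genes had a larger one. After median-ratio rescaling the difference was 0.22 and the groups overlapped, with rescaled values of 322, 627 and 218 in vehicle and 399 to 425 in 25-HC. The overlap came from vehicle 2, whose rescaling factor was 0.409 while the other libraries had factors of 0.973 to 1.32.

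The galectin-3 binding protein, a secreted scavenger-receptor-domain glycoprotein, gave the most even vehicle values of the 6 genes. Lgals3bp was at 19.9, 17.7 and 18.4 TPM with vehicle and at 43.9, 38.7 and 41.9 TPM after 25-HC. The groups did not overlap, with a coefficient of variation of 6.04% in vehicle and 6.37% in 25-HC. The means were 18.7 ± 1.13 TPM and 41.5 ± 2.64 TPM (SD, n = 3 each), a 2.22-fold difference, and 2.26-fold over vehicle 3. The log2 difference was 1.11 as deposited and 1.13 against vehicle 3 alone. It was 0.49 after median-ratio rescaling, 0.70 after quantile normalization and 0.63 after a correction for the trend of each library with transcript length, and the groups overlapped under each of these 3 scalings. After the rescaling by the median ratio, vehicle 2 was at 43.3 against 31.1 to 34.8 in 25-HC.

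Galectin-8 is a tandem-repeat galectin that marks damaged endosomes and lysosomes for autophagy. Lgals8 was at 13.6, 3.23 and 23.9 TPM with vehicle and at 36.2, 34.2 and 34.3 TPM after 25-HC. Vehicle 2 was far below the other vehicle libraries, and the highest vehicle value was 7.40 times the lowest, whereas the treated libraries stayed within 1.06 times of each other. The means were 13.6 ± 10.3 TPM and 34.9 ± 1.17 TPM (SD, n = 3 each), a 2.57-fold difference. That fold depended on the vehicle library: it was 10.8 over vehicle 2, 2.57 over vehicle 1 and 1.46 over vehicle 3. The log2 difference of 1.64 was 0.91 without vehicle 2, 2.19 without vehicle 3 and 0.53 against vehicle 3 alone, each time with no overlap. Lgals8 had the longest transcript of the members (2843 bases), and the trend with transcript length put genes of that length at -0.36 in vehicle 1, -1.37 in vehicle 2 and 0.07 in vehicle 3, on the log2 scale relative to the 25-HC mean. With that trend subtracted the difference was 1.08, still with no overlap.

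Galectin-1 is the small prototype galectin, and it had the highest level of the family in every library. Lgals1 was at 995, 1692 and 721 TPM with vehicle and at 1033, 1078 and 1024 TPM after 25-HC. The groups overlapped: vehicle 2 was above all treated libraries, and vehicle 1 and vehicle 3 were below them. The means were 1136 ± 501 TPM and 1045 ± 28.6 TPM (SD, n = 3 each), and the log2 difference was -0.03. Its sign turned with vehicle 2, to 0.30 without that library and to 0.54 against vehicle 3 alone, and it was 0.05 after quantile normalization and -0.67 after median-ratio rescaling. No direction can be given for Lgals1. Its transcript was the shortest of the members (800 bases), and the length trend stood at 0.13, -0.19 and 0.05 at that length in vehicle 1, 2 and 3. Lgals1 also has processed copies in the mouse genome. Of these, Lgals1-ps1 was listed at 0 in all libraries and Lgals1-ps2 at 0.54 TPM or less, so little was assigned to these copies.

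Galectin-4 is a tandem-repeat galectin of intestinal epithelium, and it had the lowest level of the members. Lgals4 was at 0.29, 0.57 and 0.28 TPM with vehicle and at 0.11, 0.21 and 0.24 TPM after 25-HC. The treated values were all below the vehicle values, but every value was under the mean of 1 TPM needed for testing, and no fold is drawn from it. The epithelial markers summed to 0.09 to 0.31 TPM over the 6 libraries, with Krt20 and Cdx2 listed at 0.

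**Figure D1:**
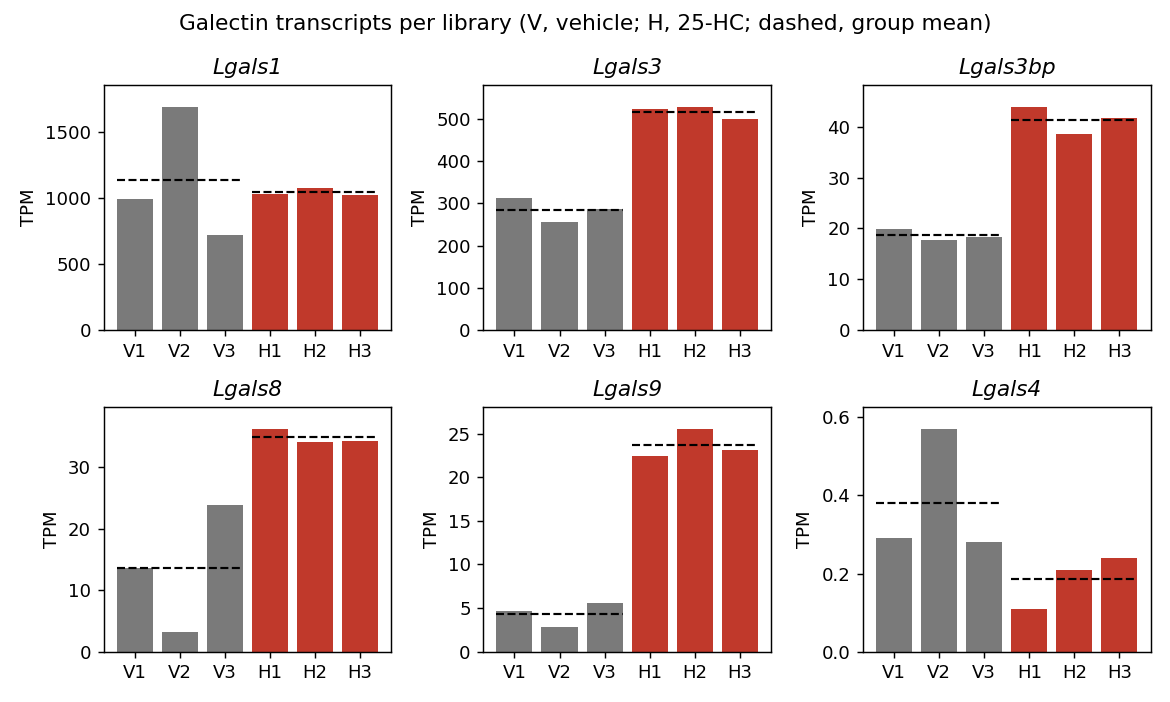
TPM of the 6 members in each library, 1 bar per library, with vehicle in grey, 25-HC in red, the mean of each group dashed and a separate axis for each gene. Lgals3, Lgals3bp, Lgals8 and Lgals9 lie above every vehicle library in all 25-HC libraries, Lgals8 varies from 3.23 to 23.9 TPM among vehicle libraries, Lgals1 overlaps and Lgals4 stays at or below 0.57 TPM.

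Of the 5 members that passed the filter, 4 had every 25-HC library above every vehicle library, and none had the opposite order. Over all genes tested 22.6% showed the upward separation and 8.1% the downward one. Since Lgals9 led to the choice, nothing is read from the members' share. The upward count was 2 of 5 after median-ratio rescaling (Lgals8 and Lgals9), where 18.7% of all genes separated upward and 17.9% downward. It was 3 of 5 after quantile normalization (Lgals3, Lgals8 and Lgals9), where 18.6% and 17.3% did, and 3 of 5 after length correction (again Lgals3, Lgals8 and Lgals9), where 17.1% separated upward and 18.7% downward. It was 5 of 5 without vehicle 2, where 23.6% of all genes separated upward and 16.9% downward, and 5 of 5 against vehicle 3 alone, where 28.5% and 45.7% did. Without vehicle 3 it was 4 of 5, where 59.5% of all genes separated upward and 13.2% downward. In limma with Benjamini-Hochberg adjustment over all genes, 1 gene outside the family passed 0.05 upward (0.00827% of those tested) and none passed downward (0.0%), and 11.2% had an unadjusted p under 0.05. No limma result is given for the members themselves.

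**Figure D2:**
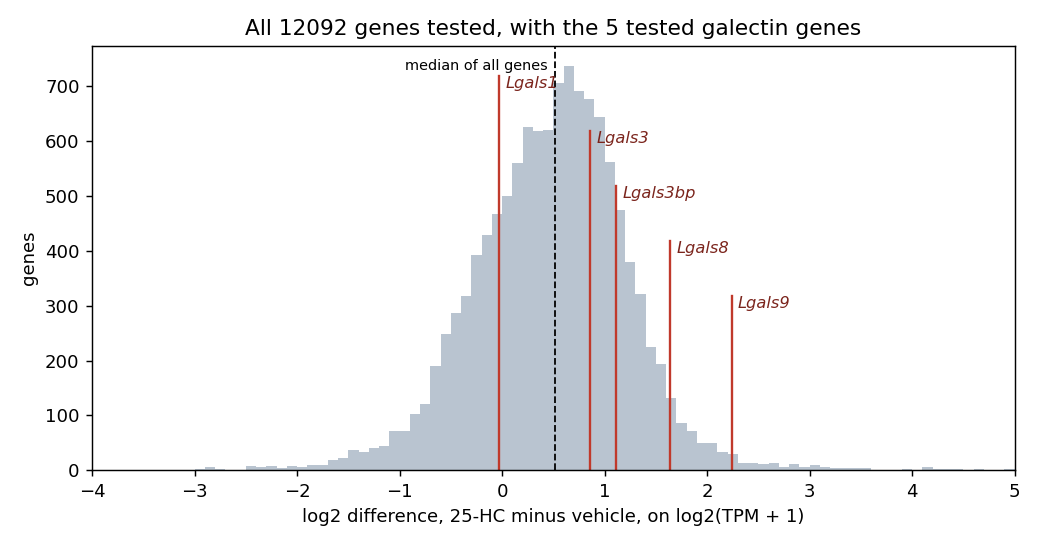
Distribution of the log2 difference between 25-HC and vehicle over the 12092 genes tested, in bins of 0.1, with the median of all genes dashed and the 5 tested members as red lines whose heights carry no value. Lgals1 lies below the median of 0.52, Lgals3 and Lgals3bp lie within the bulk at 0.86 and 1.11, and Lgals8 and Lgals9 lie in the upper tail at 1.64 and 2.24.

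The order of the differences on the deposited values was Lgals9, Lgals8, Lgals3bp, Lgals3 and Lgals1. Lgals9 came first in all the scalings and left-out libraries plotted. The second place did not hold: Lgals8 came behind Lgals3bp without vehicle 2 and was the lowest of the 5 against vehicle 3 alone, at 0.527 beside 0.535 for Lgals1. The share of genes with a larger difference than Lgals9 was 1.76% once the libraries were rescaled by the median ratio, 0.575% with the length trend removed and 0.38% against vehicle 3 alone. For Lgals3 the corresponding shares were 39.0%, 13.3% and 2.9%.

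**Figure D3:**
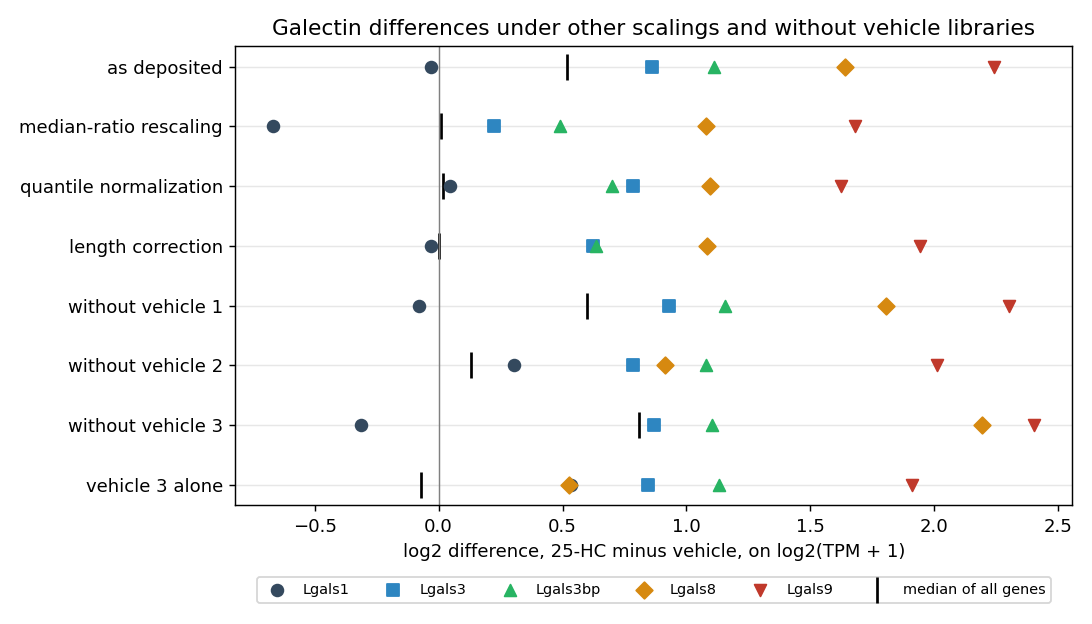
Log2 difference between 25-HC and vehicle for the 5 tested members (symbols) under 3 other scalings and without vehicle libraries, with the median of all genes as a black tick. Lgals9 stays between 1.62 and 2.40 and is the highest in each line, Lgals8 moves from 0.53 to 2.19, and Lgals1 lies on both sides of 0.

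Levels within a library, in TPM and so per transcript length, had the same order in all libraries but for 1 pair. Lgals1 was above Lgals3 in all 6 libraries, and Lgals3 was above the other members, also in all 6. Lgals8 was above Lgals9 in each of the 6, although over the vehicle libraries their ranges overlapped (3.23 to 23.9 TPM and 2.81 to 5.56 TPM). The pair that changed places was Lgals3bp (17.7 to 19.9 TPM with vehicle) and Lgals8, with Lgals8 the higher in vehicle 3 and the lower in the other libraries. In 25-HC the ranges of these 3 genes were apart, at 38.7 to 43.9 TPM for Lgals3bp, 34.2 to 36.2 TPM for Lgals8 and 22.4 to 25.6 TPM for Lgals9. Lgals1 was above at least 98.1% of the tested genes in every library and Lgals3 above at least 95.5%. Lgals9 was above 29.2% to 42.8% of the tested genes in vehicle and 62.5% to 65.8% in 25-HC.

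Ratios between members do not depend on a factor that scales a whole library, though they keep any trend with transcript length. Lgals1 made up 75.0%, 86.6% and 69.5% of the TPM of the 5 galectin genes with vehicle (libraries 1, 2 and 3) and 64.0% to 64.7% in 25-HC. Lgals3 made up 23.6%, 13.1% and 27.7% in vehicle and 31.7% to 32.4% in 25-HC. Lgals9 made up 0.354%, 0.144% and 0.536% in vehicle and 1.39% to 1.53% in 25-HC. The share of Lgals1 was thus lower, and those of Lgals3 and Lgals9 higher, in each treated library than in each vehicle library. The share of Lgals9 and the ratios to Lgals9 below rest on the values that led to the choice, so nothing is read from their separation. A lower share of Lgals1 is not a lower level, for which no direction can be given. There were 66.7, 91.2 and 51.7 TPM of Lgals3 per TPM of Lgals9 in vehicle and 20.7 to 23.4 in 25-HC. The ratio of Lgals3 to Lgals3bp was steadier, at 15.7, 14.5 and 15.7 in vehicle and 11.9 to 13.7 in 25-HC. The ratio of Lgals8 to Lgals9 overlapped, at 2.89, 1.15 and 4.30 in vehicle and 1.34 to 1.62 in 25-HC.

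The genes whose pattern over the 6 libraries was most like that of Lgals9 were Usp18, Arl11, Xaf1, Oas1g and Trem2, by Pearson r of log2(TPM + 1) among 7469 other protein-coding genes whose mean was 5 TPM or more. The r values ran from 0.995 to 0.999 and are a description over 6 libraries, which share the split between groups and the low values of vehicle 2. Usp18, the protease that removes ISG15 from proteins, was at 2.70, 1.02 and 2.98 TPM with vehicle and at 17.1, 20.4 and 18.4 TPM after 25-HC. Xaf1, an interferon-inducible pro-apoptotic factor, was at 3.21, 1.60 and 3.17 TPM with vehicle and at 11.9, 13.1 and 11.5 TPM after 25-HC. In both genes the treated libraries were all above the vehicle libraries, which follows from picking them for their likeness to Lgals9. Oas1g, an oligoadenylate synthetase with near-identical neighbours among which reads can be split, was at 27.9 to 42.1 TPM in the vehicle libraries and 112 to 120 TPM after 25-HC. Arl11, a small GTPase of macrophages, was at 5.19 to 10.3 TPM in the vehicle libraries and 35.5 to 36.3 TPM after 25-HC. Trem2, a lipid-sensing receptor, was at 195 to 228 TPM in the vehicle libraries and 368 to 377 TPM after 25-HC.

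Of these 5 genes, 4 had a promoter window in the RefSeq table. That of Oas1g held GAAANNGAA, as GAAATGGAA at bases -18 to -10 and GAAACTGAA at bases -12 to -4 on its own strand. It also held AANNGAAAC, as AATGGAAAC at bases -16 to -8 on its own strand, overlapping both, and as AAAGGAAAC at bases -144 to -136 on the other strand. The window of Xaf1 held AANNGAAAC alone, as AAACGAAAC at bases 12 to 20. Those of Arl11 and Trem2 held neither. Of all promoter windows, 8.56% held GAAANNGAA and 5.77% held AANNGAAAC. The 5 genes were picked for their likeness to Lgals9, and whether interferon had a part in their values was not tested. By the same likeness, Lgals3 was the 14th most like Lgals9 (r = 0.989) and Lgals3bp the 48th (r = 0.975). Lgals8 came at place 551 (r = 0.856) and Lgals1 at place 6240 (r = -0.24).

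**Figure D4:**
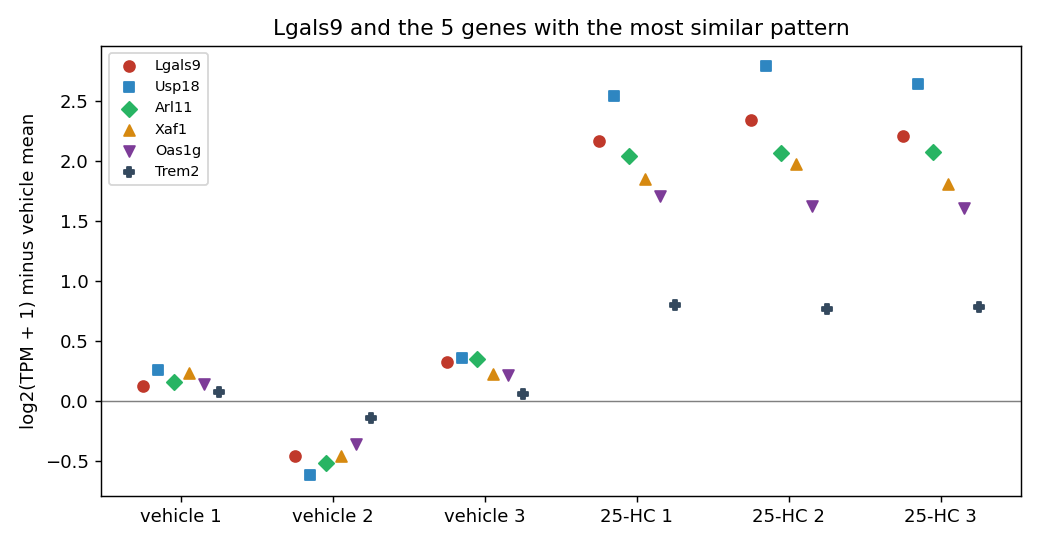
Log2(TPM + 1) of Lgals9 and of the 5 genes most like it, 1 point per gene and library, each with its vehicle mean subtracted. All 6 genes are lowest in vehicle 2, slightly above 0 in vehicle 1 and vehicle 3, and highest in the 25-HC libraries, where each gene has nearly equal values.

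Other galectin genes were low or listed at 0, and they were described after their values were seen. Of 7 listed, 5 were in the table under their symbol. Lgals7 and Lgals12 were listed at 0 in all libraries, Grifin at 0.09 TPM or less, and Lgals2 at 0.28, 2.70 and 1.12 TPM in the vehicle libraries and 0.58, 0.27 and 0.98 TPM after 25-HC. Lgalsl, which encodes a galectin-related protein, was the only one to pass the filter, at 1.26, 0.43 and 2.05 TPM in the vehicle libraries and 2.84, 2.79 and 2.91 TPM after 25-HC. Its treated libraries were all above its vehicle libraries (log2 difference 0.84, limma adjusted p = 0.389).

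A list drawn up as surface and lumenal binding partners of galectins was next, with 35 genes of which 30 were tested. In limma none of them passed over all genes in either direction, and 7 (of 30) had an unadjusted p under 0.05, beside 11.2% of all genes. This list, like those that follow, was drawn up with earlier results of these data known, so its shares are a description. Ptprc and Itgam on it are also macrophage markers. Of the 30 tested genes, 28 had a higher mean in 25-HC, and 16 (53.3%) had all treated libraries above all vehicle libraries, against 22.6% of all genes. After median-ratio rescaling 13 separated upward and 2 downward (18.7% and 17.9% of all genes), and against vehicle 3 alone 16 and 13 did (28.5% and 45.7%). The median log2 difference was 0.94, beside 0.52 for all genes. It was 0.45 without vehicle 2, beside 0.13, and 0.05 against vehicle 3 alone, beside -0.07. Fcgr2b, the inhibitory Fc gamma receptor, was at 19.4, 4.22 and 25.5 TPM with vehicle and at 73.1, 79.1 and 78.3 TPM after 25-HC (log2 difference 2.46, SE 0.62, limma adjusted p = 0.389). Lgmn, the lysosomal protease legumain, was at 212 ± 131 TPM in the vehicle libraries and 482 ± 6.54 TPM after 25-HC, and Slc3a2, the heavy chain of CD98, at 141 ± 70.4 TPM and 272 ± 3.67 TPM (SD, n = 3 each; limma adjusted p = 0.389 for both). Trem2, given above, was also on this list (log2 difference 0.79, limma adjusted p = 0.389). Its difference depended on the scaling: it was 0.70 after quantile normalization, 0.15 after median-ratio rescaling and 0.06 after length correction.

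A few partners known for 1 particular galectin follow, chosen after their values were seen. Havcr2, which encodes TIM-3, was at 1.65, 0.80 and 3.47 TPM in the vehicle libraries and 3.88, 3.48 and 3.75 TPM after 25-HC, so vehicle 3 came within 0.01 TPM of the lowest treated library. Lamp1, a heavily glycosylated lysosomal membrane protein bound by galectin-3, was at 270, 34.9 and 384 TPM in the vehicle libraries and 490, 469 and 485 TPM after 25-HC. Lag3, an inhibitory receptor of T cells bound by galectin-3, was at 0.08 TPM or less in every library.

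Enzymes that branch, extend or cap the glycans bound by galectins made up a list of 38 genes, 28 of them tested. None passed limma over all genes, and 3 of the 28 had an unadjusted p under 0.05, beside 11.2% of all genes. Their median log2 difference was 0.66, beside 0.52 for all genes, and 0.31 without vehicle 2, beside 0.13. After length correction it was 0.03, beside 0.003. Upward separation was seen in 9 (32.1%, against 22.6% of all genes) and downward separation in 2 (7.14%, against 8.1%). After median-ratio rescaling these were 8 and 4 (18.7% and 17.9% of all genes), and against vehicle 3 alone 9 and 12 (28.5% and 45.7%), with a median of -0.03. Man1a2, a mannosidase that trims N-glycans in the Golgi, was at 2.73, 1.47 and 9.06 TPM with vehicle and at 14.1, 9.17 and 14.4 TPM after 25-HC. B3gnt2, which extends the poly-N-acetyllactosamine chains that galectins favour, overlapped, with 1.89, 0.02 and 16.4 TPM in the vehicle libraries and 22.6, 15.4 and 21.1 TPM after 25-HC. Man2a2, another mannosidase, and Slc35a3, a carrier of UDP-N-acetylglucosamine into the Golgi, overlapped as well, and in both the low vehicle values came from vehicle 1 and vehicle 2. Man2a2 was at 26.1 TPM in vehicle 3 and 25.4 to 27.4 TPM after 25-HC. Slc35a3 was at 11.9 TPM in vehicle 3 and 11.6 to 13.6 TPM after 25-HC. All 4 had limma adjusted p = 0.389.

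The cytosolic machinery that meets galectins at a torn lysosome (autophagy receptors, ESCRT repair proteins, the AMPK and mTORC1 switch) was tested in 36 of 41 listed genes. None passed limma over all genes, and 3 of the 36 had an unadjusted p under 0.05, beside 11.2% of all genes. Their median log2 difference was 0.71, beside 0.52 for all genes, and fell to 0.18 without vehicle 2, where that of all genes was 0.13. After length correction it was 0.035, beside 0.003. Upward separation was seen in 10 (27.8%) and downward separation in 2 (5.56%), against 22.6% and 8.1% of all genes. These were 12 and 4 after median-ratio rescaling, with a median of 0.13 (18.7% and 17.9% of all genes), and 14 and 10 against vehicle 3 alone, with a median of 0.03 (28.5% and 45.7%). Sqstm1, the autophagy receptor p62, was at 405, 158 and 524 TPM with vehicle and at 717, 721 and 717 TPM after 25-HC, above every vehicle library. Chmp2a, an ESCRT-III subunit, was at 195, 256 and 154 TPM with vehicle and at 133, 131 and 137 TPM after 25-HC, below every vehicle library. Prkaa1, a catalytic subunit of AMPK, the kinase that galectin-9 is known to activate at damaged lysosomes, was at 4.07 ± 1.71 TPM and 6.98 ± 0.442 TPM, and Stk11, the upstream kinase LKB1, at 84.1 ± 11.4 TPM and 62.8 ± 3.38 TPM (SD, n = 3 each). These 4 had limma adjusted p = 0.389, and the difference of Prkaa1 was 0.71 as deposited and -0.01 after length correction. Trim16, a partner of galectin-3 in that response, chosen after its values were seen, was at 0.42, 0.41 and 1.12 TPM with vehicle and at 1.82, 1.53 and 1.54 TPM after 25-HC.

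**Figure D5:**
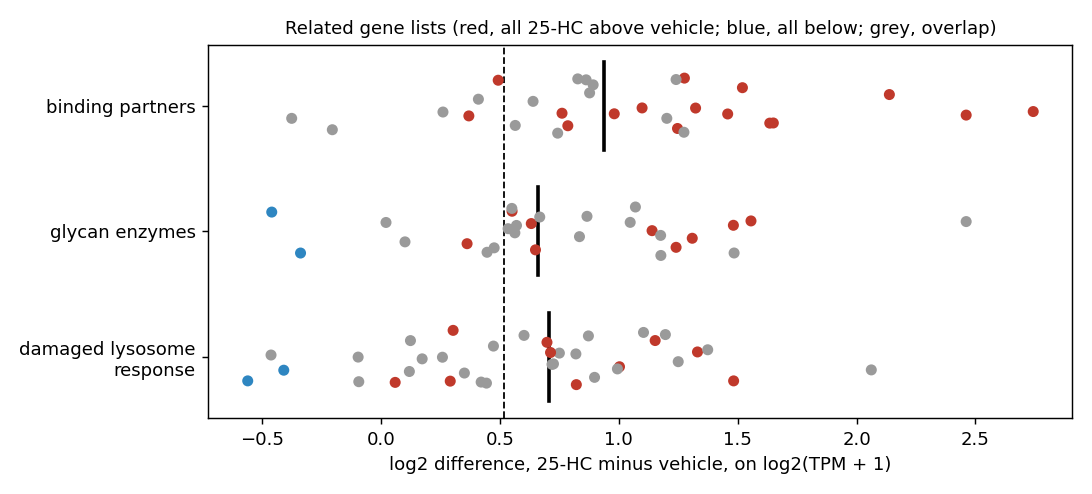
Log2 difference between 25-HC and vehicle for each tested gene of the 3 related lists (30, 28 and 36 genes), 1 point per gene with vertical scatter for legibility, the list median as a solid bar and the median of all 12092 genes dashed. The list medians of 0.94, 0.66 and 0.71 all lie right of the dashed line at 0.52, and the separated genes (red, blue) are mixed with overlapping ones (grey).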

How the data were processed

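RNA of 3 vehicle and 3 25-HC libraries was prepared with a TruSeq kit, per the labels' protocols. HISAT2, StringTie, RSEM and the build GRCm39 are named in the submitters' processing notes, with no versions or roles. Strand setting and annotation release were not given in the sources used here. Per gene and library, the authors deposited TPM, rounded to 2 decimals and summing to 1000000 in each library, so depth is unknown and no counting interval was made. There were 11 further columns, all empty.

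Among rows that share a symbol, only the row with the highest mean was named by it. The test was limma 3.58.1 under R 4.3.3 on log2(TPM + 1), for genes whose mean reached 1 TPM (variance trend, two-sided, Benjamini-Hochberg, threshold 0.05). The fit was also run on simulated data. How it behaves where vehicle libraries vary more than treated ones, as for Lgals8 (coefficient of variation 76.2% against 3.35%), was not tested. Log2 differences are on that scale and understate those of low genes. Folds are ratios of mean TPM. With 3 libraries against 3, an exact permutation test of 1 gene cannot go below 0.1. Python 3.11.15 and pandas 2.3.3 were used for summaries.

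The members and lists were chosen with earlier results of these data known. Named were all members, the called genes of each related list or else the 4 with the smallest p at a mean of at least 5 TPM, and the 5 genes most like Lgals9. Every other gene named, including the cell type markers and the copies of Lgals1, was picked after its values were seen.

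Alternatives were quantile normalization, median-ratio rescaling, pseudocounts of 0.1 and 5, no minimum or a minimum mean of 5 TPM, a length correction (loess of each library's deviations on log2 transcript length, span 0.75, degree 2), no variance trend, a replicate block and each library left out. Comparing vehicle 3 alone was added after seeing the data. Lengths are those of the longest GENCODE M21 transcript, found by identifier for 11132 tested genes (92.1%). Promoter windows are from RefSeq (GRCm38.p6), which is not the build of the table, and 5 of the 6 members had one.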

Additional observations from a re-analysis of the deposited data

How the results depend on the processing

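On the deposited values limma called 1 gene higher and 0 lower over all genes (1352 at an unadjusted p under 0.05). The genes called higher numbered 0 with a pseudocount of 5, with no filter, with a mean of at least 5 TPM and with the replicate block, 4 after quantile normalization, 16 after length correction and 547 against vehicle 3 alone. The genes called lower numbered 1 after median-ratio rescaling, 1 after quantile normalization, 3 after length correction and 765 against vehicle 3 alone, where the single vehicle library is assumed to vary like the others. With 1 library left out, 0 to 671 genes were called higher and 0 to 51 lower, both upper ends without vehicle 3. Without vehicle 2 these were 9 and 4. The members separated upward were 2 after median-ratio rescaling, 3 after quantile normalization or length correction and 4 to 5 with 1 library left out, and 1 separated downward with no filter (Lgals4). The cause of these shifts was not tested. The difference of Lgals1 turned to 0.0451 after quantile normalization and 0.54 against vehicle 3 alone, and ran from -0.31 without vehicle 3 to 0.30 without vehicle 2. That of Prkaa1 turned to -0.0106 after length correction, and the medians of the glycan enzymes and of all genes to -0.0331 and -0.0706 against vehicle 3 alone. The directions of Lgals3, Lgals3bp, Lgals8 and Lgals9 stayed the same in all alternatives run. The replicate block (in this balanced design), the variance trend and the minimum mean cannot alter a member's difference, so they say nothing about its direction. The labels do not say whether same-numbered libraries share a culture or day. Their deviations from the group means correlated at -0.01, 0.06 and 0.03 across genes. With 3 libraries in a group and vehicle libraries this unlike each other, such values can neither show nor exclude a pairing. TPM keep no depth, so what depth limits could not be assessed.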
